A study of Mus musculus with 6 samples.

Results

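Heme is made by a chain of enzymes that starts and ends in the mitochondrion, and the transcripts examined here are those of 8 genes of that chain and of the carrier that brings glycine to it. The 9 genes were taken by name from a count table of 27179 genes: Slc25a38, Alas1, Alas2, Alad, Uros, Urod, Cpox, Ppox and Fech. All 9 were found and all 9 were abundant enough to be tested. The table holds RNA-seq of the leukemia A/E9a;NRASG12D from the spleen of C57BL/6 mice, entered in the labels as a cell line and named for the A/E9a leukemia fusion oncogene and an activated NRAS; both groups carry both. One group received panobinostat, an inhibitor of histone deacetylases, and the other vehicle, each for 3 days, after which GFP-positive cells that excluded propidium iodide were sorted, with 3 libraries per group. Age, sex and dose are not stated in the labels. Nor is it stated whether a library is an animal of its own, and the p-values therefore speak of library-to-library spread, part of which may be technical.

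Glycine and succinyl-CoA are joined into aminolevulinic acid by ALA synthase, the rate-limiting enzyme. Cytosolic enzymes then build and trim the porphyrin ring, and the last oxidations and the insertion of iron take place in the mitochondrion. Mammals have a housekeeping synthase, encoded by Alas1 and held down by heme itself, and an erythroid one, encoded by the X-linked gene Alas2. Alas2 is switched on by GATA1 in red cell precursors, where most heme of the body is made, and the translation of its mRNA depends on iron.

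Libraries held between 25794869 and 32571961 counts and are named by the leading number of their column, which is no replicate number: panobinostat libraries 1, 5 and 6 and vehicle libraries 2, 3 and 4. The column names hold 2 further numbers of unstated meaning: the middle one is 4, 3 and 4 in panobinostat libraries 1, 5 and 6 and 1, 1 and 2 in vehicle libraries 2, 3 and 4, and the last is 1 in panobinostat library 1 and 3 in the other 5 libraries. Levels are CPM, the counts scaled to a common library size by TMM factors. Panobinostat library 1, the one with another last number, stood apart. It had the highest level of the 6 libraries in 8 of the 9 heme synthesis genes, against 27.8% of all tested genes, and the highest share of counts from globin genes, 6.72% against 3.71% and 3.22% in panobinostat libraries 5 and 6 and 0.614% to 0.847% in vehicle. Results are therefore given with and without it. The labelled cells were checked by marker genes. Kit, the stem cell factor receptor, was at 163, 321 and 229 CPM in panobinostat libraries 1, 5 and 6, against 210.1 to 221 CPM with vehicle. Cd34, a progenitor marker, was at 2.90, 32.3 and 9.02 CPM in these panobinostat libraries, against 7.11 to 11.3 CPM with vehicle. For both genes library 1 was the lowest of the 6 libraries and library 5 the highest. Ptprc, the pan-leukocyte antigen CD45, was low in every library. It was at 4.43, 1.77 and 3.34 CPM in panobinostat libraries 1, 5 and 6, and at 2.41 to 3.39 CPM with vehicle.

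Of the 9 heme synthesis genes, 1 rose with panobinostat and 0 fell. The one that rose was Alas2, 5.42-fold. At an unadjusted p under 0.05 there were 2, Alas2 and Ppox, both higher, and DESeq2 called the same 2 higher and 0 lower. By edgeR's quasi-likelihood test with a Benjamini-Hochberg adjusted p under 0.05, 11.3% of the 12916 tested genes were called higher and 9.72% lower, 21% in either direction, so 1 call in 9 is close to the background. The 3 panobinostat values lay above all 3 vehicle values in Alas2, Ppox and Slc25a38, 3 of 9, which compares with 21.9% of tested genes; it was the other way round in 0 of 9, against 22.7% of tested genes, 44.6% being separate in either direction. The median log2 fold change of the 9 genes was 0.59, against 0.01 over all tested genes, and 0.14 without panobinostat library 1. Summed over the 9 genes, the level was 3039.0, 1324.2 and 1512.7 CPM in panobinostat libraries 1, 5 and 6, against 1352.4, 1078.7 and 1123.9 CPM in vehicle libraries 2, 3 and 4. Libraries 5 and 6 thus lay near the vehicle libraries in total, and library 1 far above. Alas2 alone made up 22.0%, 19.0% and 13.0% of that sum in panobinostat libraries 1, 5 and 6 and 4.61% to 6.75% in vehicle libraries.

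**Figure D1:**
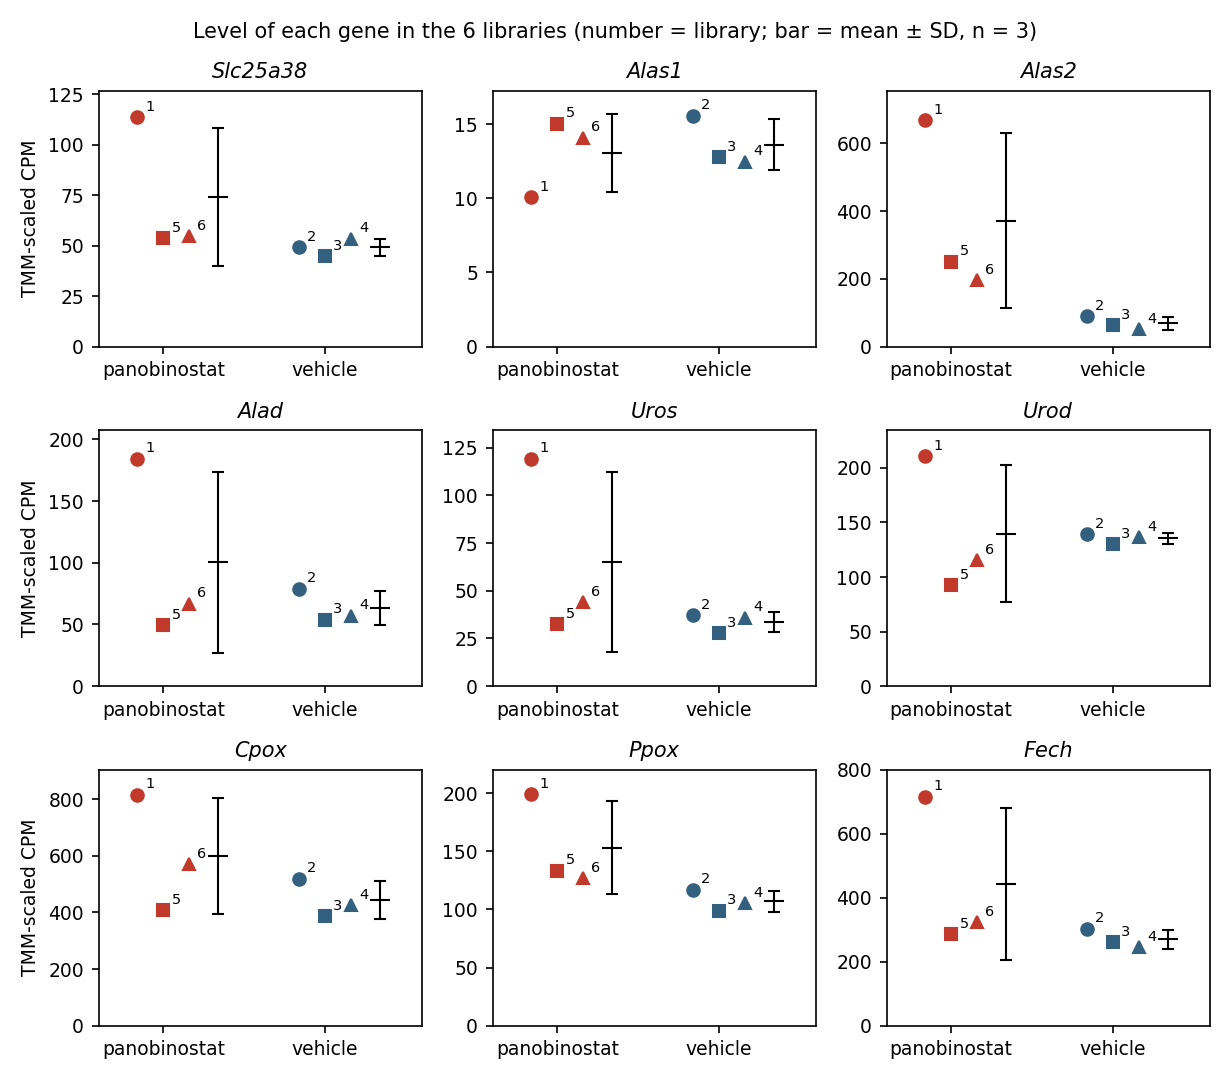
TMM-scaled CPM (vertical axis, starting at 0) of the 9 genes in the 3 panobinostat libraries (left, red) and the 3 vehicle libraries (right, blue), each point labelled with its library number; black bars are mean ± SD, n = 3. Panobinostat library 1 is the highest point in every panel except Alas1, where it is the lowest. Only for Alas2 do libraries 5 and 6 lie well above vehicle, and for Urod both lie below all vehicle libraries.

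The first enzyme of the chain is ALA synthase. Alas2 (Entrez gene 11656; GRCm38 chromosome X, 150547417 to 150570622) was at 669, 251 and 196 CPM in panobinostat libraries 1, 5 and 6, against 91.3, 62.7 and 51.9 CPM in vehicle libraries 2, 3 and 4. The groups did not overlap, and even the lowest treated library was above the highest vehicle library. Means were 372 ± 259 CPM with panobinostat and 68.6 ± 20.4 CPM with vehicle (SD, n = 3 each), a log2 fold change of 2.44 ± 0.48 (SE; 95% interval 1.32 to 3.56) with an edgeR adjusted p of 0.016. Without panobinostat library 1 the rise was 3.26-fold (edgeR adjusted p = 0.0041). The call was lost without vehicle library 2, 3 or 4 (edgeR adjusted p = 0.059, 0.054 and 0.078), with folds of 6.49, 5.19 and 4.82. In these omissions 4.65%, 9.54% and 3.32% of all tested genes were called, against 21% with all 6 libraries. In sorted bulk cells, more transcript per cell and a larger share of cells that carry it cannot be told apart.

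Alas1 (Entrez gene 11655; chromosome 9, 106233455 to 106247954) was at 10.1, 15.0 and 14.1 CPM with panobinostat and 15.6, 12.8 and 12.5 CPM with vehicle. The groups overlapped, and panobinostat library 1, highest for Alas2, was lowest for Alas1. The log2 fold change was -0.06, with a 95% interval from -0.49 to 0.38 and an edgeR adjusted p of 0.84; the interval is narrower than that of any other of the 9 genes except Ppox. Within a library, the ratio of Alas2 to Alas1 counts does not depend on scaling. It was 66.5, 16.7 and 13.9 in panobinostat libraries 1, 5 and 6, against 5.86, 4.91 and 4.16 in vehicle libraries 2, 3 and 4. The groups were separate, and the log2 ratio averaged 4.64 ± 1.23 with panobinostat and 2.30 ± 0.25 with vehicle (SD, n = 3 each). The difference of 2.34 gave an exact two-sided permutation p of 0.1, the smallest that 3 against 3 libraries allow.

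**Figure D2:**
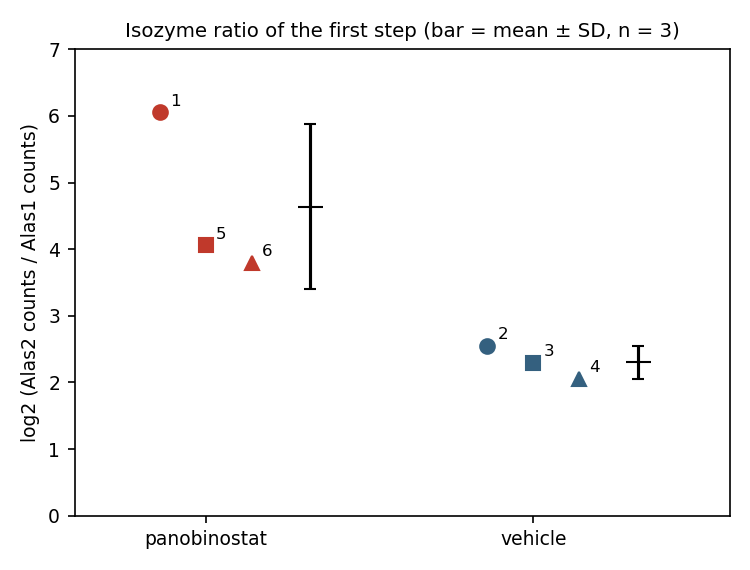
Log2 of the Alas2 count over the Alas1 count (vertical axis) in the 3 panobinostat libraries (left) and the 3 vehicle libraries (right), with library numbers; bars are mean ± SD, n = 3. The lowest panobinostat library, 6, lies well above the highest vehicle library, 2, at ratios of 13.9 and 5.86 before the logarithm.

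The promoters of these synthase genes are shown because their transcripts parted, together with those of Uros, whose annotated starts differ in the same motifs. Each line is the 250 bases upstream of a RefSeq start in GRCm38.p6, read 5′ to 3′ on the gene's strand. Capitals mark GATA sites and CACCC boxes on either strand, the motifs of GATA factors and of KLF1. A GATA site was AGATAA, with its first letter also allowed to be T and its last also G, and a CACCC box was CCNCACCC.
Alas2, chrX:150547167-150547416, plus strand: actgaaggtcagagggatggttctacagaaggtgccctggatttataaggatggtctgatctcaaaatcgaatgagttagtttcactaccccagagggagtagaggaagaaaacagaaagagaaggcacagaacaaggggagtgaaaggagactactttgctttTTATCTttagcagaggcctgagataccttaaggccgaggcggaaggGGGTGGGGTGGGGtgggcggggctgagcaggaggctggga
Alas1, upstream start, chr9:106247955-106248204, minus strand: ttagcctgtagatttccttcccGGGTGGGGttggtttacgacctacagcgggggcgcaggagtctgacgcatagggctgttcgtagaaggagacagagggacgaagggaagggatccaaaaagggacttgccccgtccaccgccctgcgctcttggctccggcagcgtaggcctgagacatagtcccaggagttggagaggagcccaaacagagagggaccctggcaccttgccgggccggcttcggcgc
Uros, upstream start, chr7:133709296-133709545, minus strand: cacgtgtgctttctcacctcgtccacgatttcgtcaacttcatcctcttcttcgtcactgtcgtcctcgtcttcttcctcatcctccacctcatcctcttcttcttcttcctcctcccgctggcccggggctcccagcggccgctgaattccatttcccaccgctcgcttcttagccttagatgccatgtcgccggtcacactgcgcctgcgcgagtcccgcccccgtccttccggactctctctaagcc
Uros, downstream start, chr7:133702501-133702750, minus strand: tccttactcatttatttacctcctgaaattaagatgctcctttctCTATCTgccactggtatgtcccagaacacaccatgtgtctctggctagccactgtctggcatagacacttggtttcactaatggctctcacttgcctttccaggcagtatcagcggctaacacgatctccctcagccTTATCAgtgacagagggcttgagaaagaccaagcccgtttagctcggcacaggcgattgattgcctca
The Alas2 window held 1 GATA site, beginning 86 bases before the start, and 2 CACCC boxes that overlap each other, beginning at 40 and 35 bases. The Alas1 window held 0 GATA sites and 1 CACCC box, and the window of a second annotated Alas1 start held 2 matches to the NRF1 site and 1 CACCC box. For Uros the upstream window held 0 GATA sites and 1 NRF1 match, and the downstream window 2 GATA sites. Among 32851 promoter windows of this length, 26.5% held a GATA site, 14.9% a CACCC box and 3.74% an NRF1 site, so a GATA match by itself is common. Windows of 8 of the 9 genes were examined, 11 in all. Fech was left out by choice, so the counts say nothing of its promoter. A GATA site stood in 3 of the 11 windows, those of Alas2 and Cpox and the downstream one of Uros. Counts are per gene, so the starts of Alas1 and Uros cannot be told apart in these data.

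Slc25a38 (Entrez gene 208638; chromosome 9, 120110377 to 120126093), the carrier that brings glycine into mitochondria and is mutated in a congenital sideroblastic anemia, was at 114, 53.9 and 54.9 CPM in panobinostat libraries 1, 5 and 6, against 49.2, 45.0 and 53.5 CPM in vehicle libraries 2, 3 and 4. Library 1 stood far above the others, and libraries 5 and 6 lay just above the highest vehicle library. The log2 fold change of 0.59 ± 0.29 (SE) did not pass (edgeR adjusted p = 0.18), and it was 0.14 without library 1.

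The next enzymes work in the cytosol. Alad (Entrez gene 17025; chromosome 4, 62505984 to 62520063), which joins a pair of ALA molecules into porphobilinogen, was at 184, 49.7 and 66.9 CPM in panobinostat libraries 1, 5 and 6, against 79.2, 54.0 and 57.1 CPM in vehicle libraries 2, 3 and 4. Library 1 was high, library 6 lay within the vehicle range and library 5 below it. The log2 fold change was 0.66 ± 0.46 (SE; 95% interval -0.42 to 1.74; edgeR adjusted p = 0.33) and -0.12 without library 1. Uros (Entrez gene 22276; chromosome 7, 133686142 to 133710467), which closes the porphyrin ring, was at 119, 32.6 and 43.9 CPM with panobinostat and 37.4, 27.9 and 36.0 CPM with vehicle. It had the largest log2 difference after Alas2, 0.95 ± 0.45 (SE; edgeR adjusted p = 0.17), but that value was 0.18 without library 1.

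Urod (Entrez gene 22275; chromosome 4, 116989965 to 116994436), the decarboxylase that follows and the enzyme deficient in porphyria cutanea tarda, was at 211, 92.9 and 116 CPM in panobinostat libraries 1, 5 and 6, against 140, 130 and 137 CPM in vehicle libraries 2, 3 and 4. Libraries 5 and 6 lay below all vehicle libraries while library 1 lay above them. Over all libraries the log2 fold change was 0.04 ± 0.28 (SE; edgeR adjusted p = 0.93). Without panobinostat library 1 it was -0.38, called lower (edgeR adjusted p = 0.036), and it was also negative, without a call, when libraries were scaled by size alone (-0.07). Urod was the only one of the 9 genes with a call lower in any setting run.

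Cpox, Ppox and Fech carry out the last steps at and inside the mitochondrion. Cpox (Entrez gene 12892; chromosome 16, 58670208 to 58680391), coproporphyrinogen oxidase of the intermembrane space, was at 816, 409 and 571 CPM in panobinostat libraries 1, 5 and 6, against 519, 387 and 425 CPM in vehicle libraries 2, 3 and 4. Library 5 lay within the vehicle range and libraries 1 and 6 above it, and the log2 fold change of 0.43 ± 0.24 (SE) did not pass (edgeR adjusted p = 0.24; 0.14 as the log2 fold change without library 1). Ppox (Entrez gene 19044; chromosome 1, 171276991 to 171281193), protoporphyrinogen oxidase, was at 199, 133 and 127 CPM with panobinostat and 117, 98.9 and 105 CPM with vehicle. All 3 treated libraries were above all 3 vehicle libraries. The log2 fold change was 0.52 ± 0.18 (SE; 95% interval 0.10 to 0.93), and the edgeR adjusted p was 0.080; DESeq2 and limma-voom with sample weights called it (adjusted p = 0.041 and 0.030). Without panobinostat library 1 the log2 fold change of Ppox was 0.28.

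Fech (Entrez gene 14151; chromosome 18, 64456542 to 64489098), the ferrochelatase that inserts iron into protoporphyrin, was at 716, 287 and 323 CPM in panobinostat libraries 1, 5 and 6, against 304, 260.5 and 246 CPM in vehicle libraries 2, 3 and 4. Library 5 lay within the vehicle range, library 6 slightly above it and library 1 far above it. The log2 fold change of 0.71 ± 0.33 (SE; 95% interval -0.07 to 1.49) did not pass (edgeR adjusted p = 0.17), and it was 0.18 without library 1.

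**Figure D3:**
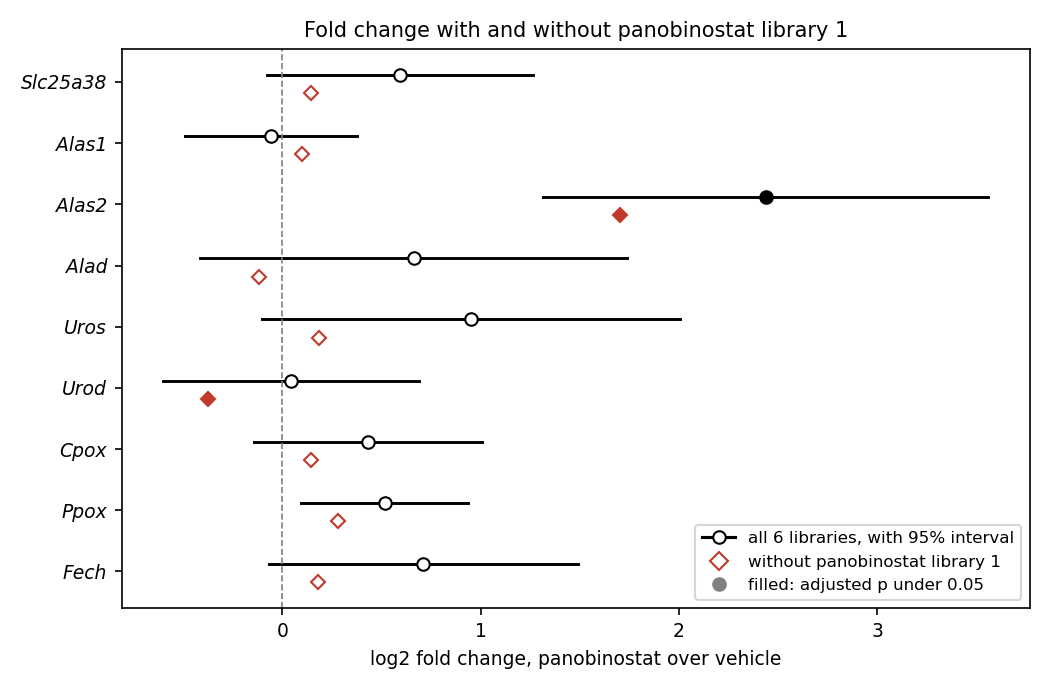
Log2 fold change of panobinostat over vehicle (horizontal axis) for the 9 genes: black circles with 95% intervals from all 6 libraries, red diamonds without panobinostat library 1, filled where the edgeR adjusted p was under 0.05. Alas2 is filled both ways at 2.44 and 1.70, Urod is filled at -0.38 without library 1, and the other diamonds lie between -0.12 and 0.28.

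Across the 8 genes other than Alas2, the median fold over the vehicle mean was 2.09 in panobinostat library 1, 1.01 in library 5 and 1.15 in library 6, and 0.919 to 1.12 in vehicle libraries. Against the vehicle range, library 5 was above it in 3 of the 9 genes, within it in 4 and below it in 2. Library 6 was above it in 6, within it in 2 and below it in 1. Library 1 was above it in 8 and below it in 1, Alas1.

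Levels of different genes were compared per kilobase of exon. With panobinostat Cpox came first at 193 ± 66.2 CPM per kb (SD, n = 3) and Alas2 next at 183 ± 127, followed by Urod, Ppox, Alad, Fech, Slc25a38, Uros and Alas1. With vehicle Cpox came first at 143 ± 22.1 CPM per kb, followed by Urod at 91.0 ± 3.25, Ppox, Alad and Fech, with Alas2 in place 6 at 33.7 ± 9.99 CPM per kb and then Slc25a38, Uros and Alas1. Among vehicle libraries the ranges of Ppox and Alad, Fech and Alas2, and Alas2 and Slc25a38 overlapped, while other neighbours in the order were separate. Among panobinostat libraries every neighbouring pair overlapped except Uros and Alas1. Alas1 was lowest in both groups, at 3.30 ± 0.67 and 3.44 ± 0.43 CPM per kb in panobinostat and vehicle libraries.

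Genes that work beside the 9 were examined in the same way. With all 6 libraries, 21% of all tested genes were called in either direction. That share was 31.1%, 12.5% and 15.9% without panobinostat library 1, 5 and 6. Without vehicle library 2, 3 and 4 it was 4.65%, 9.54% and 3.32%. Gains and losses of calls in the lists below stand beside these shares. Of 14 tested transporters and helpers of heme synthesis, 2 rose and 0 fell, with a median log2 fold change of 0.27. The higher calls were 14.3% of the list, near the 11.3% of all tested genes called higher. Slc6a9, the plasma membrane glycine transporter of red cell precursors, was at 193, 111 and 108 CPM in panobinostat libraries 1, 5 and 6, against 73.8, 77.3 and 64.7 CPM in vehicle libraries 2, 3 and 4 (1.91-fold, edgeR adjusted p = 0.030). Tmem14c, which carries porphyrin across the inner mitochondrial membrane, rose by a log2 fold change of 0.59 (edgeR adjusted p = 0.041). Of the 14 genes, 6 had all treated libraries above all vehicle libraries and 1 had them all below. Over all tested genes these shares were 21.9% and 22.7%. Slc6a9 and Tmem14c were among the 6. Both were called without library 1, at 1.52-fold and 1.31-fold (edgeR adjusted p = 0.0063 and 0.018), and both calls were lost when any 1 vehicle library was left out; Tmem14c also missed without panobinostat library 6 (0.061) and with scaling by library size alone (0.055). Slc25a37, mitoferrin, which imports iron for ferrochelatase, was at 888, 274 and 382 CPM with panobinostat and 241, 232 and 252 CPM with vehicle, without a call (2.13-fold, edgeR adjusted p = 0.089). Library 1 was far ahead and libraries 5 and 6 were also above all vehicle libraries. Without library 1 it was 1.36-fold higher and called (edgeR adjusted p = 0.0499), as it was without library 5 (0.034).

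Of 9 tested genes of glycine and succinyl-CoA metabolism, which supply or use the substrates of the first step, 5 fell and 0 rose, with a median log2 fold change of -0.33. Of all tested genes, 9.72% were called lower. Suclg2, a subunit of a succinyl-CoA ligase, fell to 30.3, 27.9 and 33.8 CPM in panobinostat libraries 1, 5 and 6, against 50.8, 46.5 and 50.2 CPM in vehicle libraries 2, 3 and 4 (edgeR adjusted p = 0.0085). Shmt1 and Shmt2, the cytosolic and mitochondrial hydroxymethyltransferases that make glycine from serine, were 1.84-fold and 1.54-fold lower (edgeR adjusted p = 0.015 and 0.021), and Sucla2, a further succinyl-CoA ligase subunit, was 1.26-fold lower (edgeR adjusted p = 0.028). The fifth, Gcsh of the glycine cleavage system, which breaks glycine down, was 1.52-fold lower (edgeR adjusted p = 0.031). Ogdh and Dlst, of the complex that makes succinyl-CoA, had log2 fold changes of -0.026 and -0.0044 without a call (edgeR adjusted p = 0.87 and 0.98), and Amt, also of glycine cleavage, was at 2.02 to 2.78 CPM with panobinostat and 0.840 to 1.88 CPM with vehicle (edgeR adjusted p = 0.13). In the 5 genes that fell all treated libraries were below all vehicle libraries. Of the 9 tested genes of the list, 6 were separate in this direction and 1 in the other. Over all tested genes these shares were 22.7% and 21.9%. In Suclg2 and Sucla2 library 1 lay between or close to the other treated libraries. Calls lower in this list were 6 without panobinostat library 1, 4 without panobinostat library 5 or 6, and 1, 2 and 0 without vehicle library 2, 3 and 4. Over all genes, lower calls were 1255 with every library kept. They were 1864, 643 and 931 without panobinostat library 1, 5 and 6, and 180, 514 and 135 without vehicle library 2, 3 and 4. Of 14 tested iron-sulfur cluster assembly genes, 2 fell and 0 rose, a count of lower calls near the 9.72% of all tested genes. The 2 were Fdxr, ferredoxin reductase, 1.61-fold lower, and the mitochondrial chaperone Hspa9, 1.51-fold lower (edgeR adjusted p = 0.011 and 0.014). Both calls were lost without vehicle library 2 or 4 (edgeR adjusted p from 0.051 to 0.073).

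Of 11 tested genes of heme breakdown, transport and sensing, 2 rose and 1 fell. The higher calls were 18.2% of the list, against 11.3% of all tested genes called higher and 9.72% called lower. Hmox1, the inducible heme oxygenase, was at 20.3, 21.3 and 9.27 CPM in panobinostat libraries 1, 5 and 6, against 4.75, 3.83 and 2.502 CPM in vehicle libraries 2, 3 and 4 (4.58-fold, edgeR adjusted p = 0.011). Slc48a1, a heme transporter, rose 1.57-fold (edgeR adjusted p = 0.040), and Blvra, a biliverdin reductase, fell 1.27-fold (edgeR adjusted p = 0.036). Hmox1 was about as high in library 5 as in library 1, with library 6 between these and vehicle. Its call was lost without vehicle library 4 (0.056), that of Slc48a1 without panobinostat library 6 or any 1 vehicle library (0.052 to 0.14) and with library size alone (0.053), and that of Blvra in every omission except that of panobinostat library 1 (0.092 to 0.14).

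Globin genes, whose products take up heme, and regulators of red cell genes were examined beside Alas2. All 8 tested globin genes rose, with log2 fold changes between 2.54 and 6.14; the adult copies are near-identical and their reads cannot be assigned with certainty. Hbb-bs, an adult beta globin, was at 6567.7, 3873.0 and 3384.9 CPM in panobinostat libraries 1, 5 and 6, against 599.7, 810.7 and 482 CPM in vehicle libraries 2, 3 and 4 (edgeR adjusted p = 0.0041). The globins with the smallest p were Hbb-bh2, Hbb-bh1, Hba-x and Hbb-y, embryonic or embryonic-like genes that rose 14.3-fold, 21.2-fold, 70.4-fold and 63.6-fold (edgeR adjusted p from 0.0014 to 0.0034). Hba-x was 107-fold higher without vehicle library 2, with vehicle counts of 7, 3 and 2 in libraries 2, 3 and 4, and without panobinostat library 5 Hbb-y was 41.7-fold higher. Among panobinostat libraries the adult globins had the order of Alas2, with library 1 highest, while these 4 were highest in library 5; among vehicle libraries the adult globins were highest in library 3 and Alas2 in library 2. Of 13 tested erythroid regulators 7 rose and 0 fell, among them Nfe2, Gata2, the iron regulatory protein gene Aco1 and Tal1, by 2.22-fold, 1.72-fold, 1.37-fold and 1.39-fold (edgeR adjusted p from 0.0090 to 0.014). Higher calls were 53.8% of these regulators, against 11.3% of all tested genes. Gata1, a direct regulator of Alas2, was at 441, 315 and 323 CPM with panobinostat and 262, 246 and 255 CPM with vehicle (1.42-fold, edgeR adjusted p = 0.045). Its call was lost without panobinostat library 6 or any 1 vehicle library (edgeR adjusted p = 0.058 to 0.15). It was also lost with upper-quartile scaling factors (0.052) and with library size alone (0.070). Calls in the regulator list were 8, 8 and 5 without panobinostat library 1, 5 and 6, and 1, 3 and 0 without vehicle library 2, 3 and 4.

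**Figure D4:**
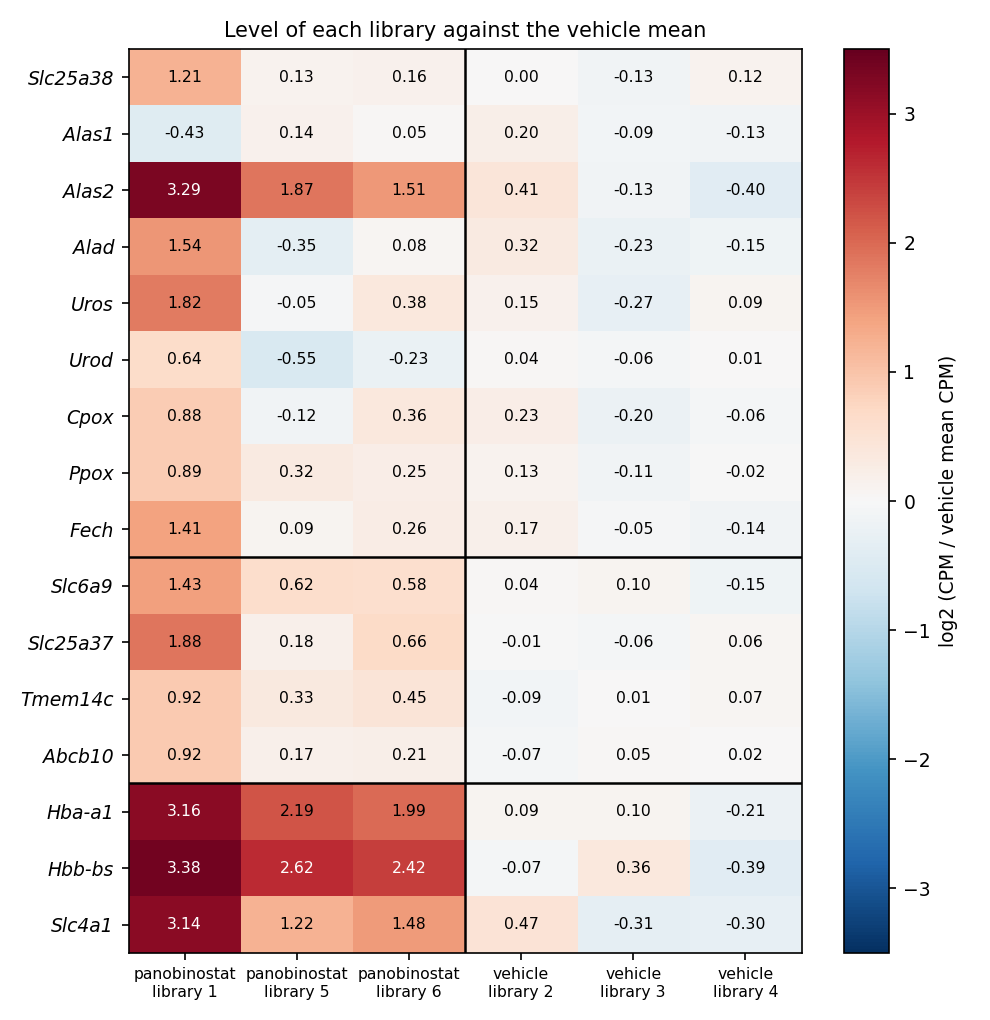
Log2 of each library's CPM over the vehicle mean CPM (colour and printed value; columns are libraries, panobinostat left of the line) for the 9 genes, 4 partner genes and 3 genes of globin and the red cell membrane, the last 7 chosen for display after their values were seen. In panobinostat libraries 5 and 6 Alas2 is 3.66 and 2.86 times the vehicle mean, while the other heme synthesis genes lie between 0.685 and 1.30 times it.

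Markers of maturing red cells and of other spleen cells were checked, although the sort took GFP-positive leukemia cells, a gate that would remove unlabelled host cells. Of 17 tested red cell markers, 8 rose and 0 fell, among them Epb41 and Ank1 of the membrane skeleton, 1.64-fold and 1.78-fold, and Slc4a1, 4.66-fold (edgeR adjusted p from 0.0097 to 0.028); Slc4a1 was 2.57-fold higher without panobinostat library 1. The summed level of the 18 markers was 11499.8, 5142.7 and 6388.7 CPM in panobinostat libraries 1, 5 and 6, against 5591.2, 5202.9 and 5704.6 CPM in vehicle libraries 2, 3 and 4. The carbonic anhydrase genes Car1 and Car2 made up 4801.6, 1915.6 and 2633.0 of these CPM with panobinostat and 3042.6, 3101.9 and 3450.4 with vehicle. The other 16 markers, a split made with the values known, summed to 6698.2, 3227.1 and 3755.7 CPM in panobinostat libraries 1, 5 and 6, against 2548.7, 2101.0 and 2254.2 CPM in vehicle libraries 2, 3 and 4, with library 1 highest and all treated libraries above all vehicle libraries. Calls higher in this list were 11 without panobinostat library 1, 11 without library 5, 5 without library 6, and 2, 2 and 1 without vehicle library 2, 3 and 4. Of all tested genes, 16.8%, 7.58% and 8.82% were called higher without panobinostat library 1, 5 and 6. The share was 3.28%, 5.64% and 2.29% without vehicle library 2, 3 and 4, against 11.3% with every library kept. Car1 was at 806, 273 and 316 CPM with panobinostat and 1019.2, 880.1 and 850.1 CPM with vehicle (edgeR adjusted p = 0.11). Without panobinostat library 1 it was called lower, at a log2 fold change of -1.64 (edgeR adjusted p = 0.00058). Red pulp macrophage markers, cells that recycle heme, summed to 73.1, 41.3 and 20.3 CPM with panobinostat and 10.96 to 20.2 CPM with vehicle; 2 of 10 tested rose, Hmox1 and Vcam1 (2, 1 and 3 without panobinostat library 1, 5 and 6, and 1, 1 and 0 without vehicle library 2, 3 and 4), and the defining factor Spic was at 0.315 to 2.02 CPM with panobinostat and 0.106 to 0.614 CPM with vehicle. Mast cell and basophil markers summed to 1758.6, 3869.4 and 2908.9 CPM in panobinostat libraries 1, 5 and 6 and 1919.2 to 2438.4 CPM in vehicle libraries, with library 1 below the vehicle range and libraries 5 and 6 above it. Of 8 tested 1 rose, Gata2, which was above all vehicle libraries in library 1 too; 3 were called higher without library 1, the others being Fcer1a and Hdc, 1 without panobinostat library 5 or 6 or vehicle library 3, and 0 without vehicle library 2 or 4. Cpa3, a mast cell protease, was at 13.7, 312 and 147 CPM with panobinostat and 70.9 to 170 CPM with vehicle. With every library kept, higher calls were 47.1% of the red cell, 20% of the macrophage and 12.5% of the mast cell and basophil markers tested. The share over all tested genes was 11.3%. The part of these markers in the values of library 1 was not tested.

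Megakaryocyte markers held 4 called higher of 5 tested, led by Pf4 and Itga2b, 5.86-fold and 6.15-fold (edgeR adjusted p = 0.0043 for both), then Gp9 and Gp1ba. That was 80% of those tested, against 11.3% of all tested genes. Calls were 3, 3 and 4 without panobinostat library 1, 5 and 6, and 2 without any 1 vehicle library. Of 7 tested progenitor and leukocyte markers Myb rose (1.46-fold, edgeR adjusted p = 0.014, and 0.054 to 0.070 without 1 vehicle library). This call was 14.3% of those tested, near the 11.3% of all tested genes. Neutrophil, B cell, and dendritic cell markers held 0 calls of 5, 4 and 1 tested by edgeR, and 1, 0 and 0 at an unadjusted p under 0.05, and T and NK cell markers had 0 tested; these sums were at most 9.58, 6.91, 2.55 and 1.402 CPM in any library.

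The 5 genes whose 6 log2 levels lay closest to those of Alas2, among 9385 named genes averaging 5 CPM or more and each centred on its own mean, were Prdm1, Xaf1, Isg20, Slc4a1 and Hsh2d, at root-mean-square distances of 0.20 to 0.26. Prdm1 encodes the transcription factor BLIMP1, Xaf1 and Isg20 are interferon-stimulated genes, Slc4a1 encodes band 3 of the red cell membrane, and Hsh2d an adaptor protein of blood cells. Being chosen for their likeness to Alas2 they were all higher with panobinostat, with log2 fold changes of 2.22 to 2.72, and of 1.32 (Hsh2d) to 2.166 (Xaf1) without library 1. The 3 interferon-stimulated genes kept as a check, Irf7, Isg15 and Ifit1, rose 12.8-fold, 15.6-fold and 39.4-fold (edgeR adjusted p from 0.0034 to 0.0050), and 9.38-fold, 10.3-fold and 19.9-fold without library 1. Slc4a1 was at 1859.7, 490.3 and 588 CPM in panobinostat libraries 1, 5 and 6, against 290.4, 169 and 171 CPM in vehicle libraries 2, 3 and 4, with library 1 highest by far, as for Alas2. Closest to Alas1 were Hlcs, Castor1, Rai1, Pggt1b and H6pd, at 0.02 to 0.06, none of them called. Hlcs, which attaches biotin to carboxylases, was at 32.2, 48.5 and 45.5 CPM with panobinostat and 48.1, 41.3 and 40.1 CPM with vehicle, lowest in library 1 like Alas1. The distances cover only 6 libraries, and within a library all genes share its depth and its sorted cells.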

How the data were processed

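RNA of sorted leukemia cells was sequenced in 6 libraries, 3 per group. The authors deposited counts, one whole number for each Entrez gene and library. Among the tools in the submitters' processing notes are HISAT2 2.1.0 and cutadapt 2.1, then featureCounts (Subread 2.0.0), with mm10 as the build. No source used here gives the annotation or strand setting, so overlapping or antisense genes cannot be separated. Column names give the group but no number tied to the labels' replicates.

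Names came from RefSeq (GRCm38.p6) for 25275 genes and GENCODE vM21 for 18. Low counts were removed with filterByExpr, leaving 12916 genes, with TMM scaling and edgeR 4.0.16's quasi-likelihood F test in R 4.3.3, fitted on treatment alone, and Benjamini-Hochberg adjustment over the 12916 genes. A standard error is |log2 fold change| over the root of F. CPM values were computed here from the deposited counts. Exon length is the union of coding transcripts in GENCODE basic. Alternatives were DESeq2 1.42.0, limma-voom (limma 3.58.1), 4 scalings, 2 filters and each library left out. A single count was worth 0.0315 to 0.0403 CPM. No library pair agreed within sampling noise (chi-square per degree of freedom at least 13.2).

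From each list, up to 4 called genes with the smallest p were named; a few more, taken for a role or as markers, were picked with their values known. Some genes of the lists are counted but not reported here by name. The 9 genes and all lists were chosen with earlier results of these data known.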

Additional observations from a re-analysis of the deposited data

How the results depend on the processing

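Over all genes, 1460 were called higher and 1255 lower; these were 2358 and 2162 with limma-voom and sample quality weights, and 1135 and 2065 with library size alone, which shifted the median over all genes to -0.10 (log2) and the share of higher calls to 35.5%, against 53.8%. Leaving out 1 library gave 303 to 2192 higher and 135 to 1864 lower calls. Of the heme synthesis genes, 2 were called higher with DESeq2 and with weighted limma-voom, the added gene being Ppox (log2 fold change 0.50 and 0.34), and 0 to 1 higher and 0 to 1 lower when 1 library was left out. Alas2 ranged from 1.70 (without panobinostat library 1) to 2.75 (without panobinostat library 6) on the log2 scale, and every other scaling, filter and tool kept its call.

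Signs turned for Alas1, Urod and Alad. Alas1 was at 0.10 with weighted limma-voom and, when 1 library was left out, between -0.17 and 0.10, positive without panobinostat library 1 (0.10) or vehicle library 2 (0.05). Urod was at -0.069 with library size alone, -0.045 with limma-voom, -0.23 with its weighted form and from -0.38 to 0.27 over omitted libraries. Alad ranged from -0.12 (without panobinostat library 1) to 0.99. Uros spanned 0.18 to 1.27, Cpox 0.14 to 0.64, Ppox 0.28 to 0.64, Fech 0.18 to 0.94 and Slc25a38 0.14 to 0.78. Calls in all context lists together were 44, and 14 to 56 over omitted libraries. The Alas2 to Alas1 ratio kept its direction in every omission (log2 difference 1.63 to 2.76). The causes were not tested. The lowest count among the 9 genes was 309. No paired analysis was possible because no number in the count columns is tied to the labels' replicates, and the groups share no middle number.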
